A study of Mus musculus with 12 samples.

Results

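The nuclear genes of the mitochondrial respiratory chain were followed in alveolar type 2 (AT2) cells across bleomycin injury and loss of Atg5. All genes whose name in the deposited expression table starts with Nduf, Uqcr, Cox4, Cox5, Cox6, Cox7, Cox8 or Atp5 were taken, together with Sdha, Sdhb, Sdhc, Sdhd and Cyc1, which gave 93 of the 21878 genes in the table. By name, 36 encode subunits of complex I, 4 of complex II, 9 of complex III, 18 of complex IV and 15 of complex V (the ATP synthase). A further 7 are assembly factors of complex I (Ndufaf genes), 2 belong to the Ndufa4 family, and Atp5s and Atp5sl carry an Atp5 name without being counted here as subunits of the enzyme. The mitochondrially encoded subunits were not analysed here.

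The respiratory chain sits in the inner mitochondrial membrane. Complexes I and II pass electrons from NADH and succinate to ubiquinone, complex III hands them on to cytochrome c, and complex IV gives them to oxygen. Complexes I, III and IV pump protons as they do so, and complex V uses the proton gradient to make ATP. Several subunits of complex IV exist as paralogous isoforms, of which one is made in most tissues and another mainly in heart and skeletal muscle or in testis. AT2 cells make surfactant and can renew the alveolar epithelium, and mitochondria supply part of the energy for this work. Atg5 is needed to form autophagosomes, the vesicles by which cells degrade their own components, worn mitochondria among them.

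Each of the 4 groups held 3 samples of AT2 cells from C57BL/6 mice. AT2-PBS and AT2-BLM were from mice labelled wild type and given PBS or BLM (bleomycin, which damages the lung's epithelial lining), and the study's text calls these mice Atg5 f/f. Atg5-/- AT2-PBS and Atg5-/- AT2-BLM received the same treatments in floxed Atg5 mice with an Nkx2.1-Cre transgene, in which Cre is expressed across the lung epithelium and not in AT2 cells alone. By the study's text, mice of the BLM injury experiments were male and 8 to 12 weeks old. BLM was instilled into the trachea at 2 U/kg, and cells were taken at day 14. No source used here names the day for Atg5-/- AT2-PBS. The sort kept EpCAM+ cells that were negative for CD31, CD34, CD45, CD24 and Sca-1. Nothing in the sources used here says whether a sample was 1 mouse or a pool, so p-values measure the spread between these samples only. FPKM (fragments scaled to transcript length and to the mapped fragments of a library) were deposited, and the read depth behind each value is unknown. Members are compared below on log2(FPKM + 1), a scale on which changes of weakly expressed genes come out too small.

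Several facts about the libraries touch the results. Whole-gene FPKM of Atg5 ranged from 6.01 to 12.5 in AT2-PBS and from 6.72 to 10.1 in Atg5-/- AT2-PBS, so this value does not check the genotype and the groups are named by their labels. The study's text describes the mice of its BLM injury experiments as male. The Y-linked gene Eif2s3y, however, was at 8.25 to 13.1 FPKM in 5 libraries and at 0.53 FPKM or less in the other 7. The 5 libraries were 2 of AT2-PBS, 1 of AT2-BLM, 0 of Atg5-/- AT2-PBS and 2 of Atg5-/- AT2-BLM. Counts below are therefore also given from a fit that carries the Y-linked level of each library as a covariate, which was added once the data had been seen. The AT2 markers Sftpb, Sftpa1, Sftpd, Lamp3 and Abca3 were expressed in every library, whereas Sftpc was listed at 0 in 11 libraries and at 112570 FPKM in AT2-BLM replicate 2, so a listed 0 cannot be read as absence. In bulk samples, fewer cells of a type and less RNA per cell cannot be told apart.

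Respiratory chain transcripts were abundant in AT2 cells. The 93 genes together held between 3.72% and 6.06% of all FPKM in a library. Of the 93, 89 reached 1 FPKM in 3 or more samples and were tested, and Cox4i2, Cox7b2, Cox8c and Ndufa4l2 were not. Among the tested genes the highest mean FPKM in complex I was that of Ndufa7 and the lowest that of Ndufv3, and in complex II Sdhb and Sdha took these places. Uqcr11 and Uqcrq were the highest and lowest of complex III, Cox6a1 and Cox8b of complex IV, and Atp5b and Atp5h of complex V. The assembly factors ran lower than most subunits, from Ndufaf3, at 31.5 to 62.6 FPKM over the 12 samples, down to Ndufaf6, at 0.654 to 2.02 FPKM. The mean FPKM of Ndufaf3, 48.6, was above that of some complex I subunits, such as Ndufs1 at 24.8.

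The summed FPKM of the 93 genes was 15793, 14524 and 19594 in AT2-PBS replicates 1 to 3 and 20857, 21550 and 24063 in AT2-BLM. Atg5-/- AT2-PBS gave 19322, 20473 and 17562, and Atg5-/- AT2-BLM gave 15522, 27003 and 19823. By sum, all 3 AT2-BLM samples were above all 3 AT2-PBS samples. Atg5-/- AT2-BLM held both the highest sum of the series and a sum within the range of AT2-PBS. The map of the genes by sample shows the same in single genes, with AT2-PBS replicate 2 and Atg5-/- AT2-BLM replicate 1 low in most rows and Atg5-/- AT2-BLM replicate 2 high. As a share of a library's FPKM, however, the members held 3.93%, 3.72% and 4.70% in AT2-PBS replicates 1 to 3. AT2-BLM held 4.67%, 3.92% and 5.60%, so these shares overlapped.

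**Figure D1:**
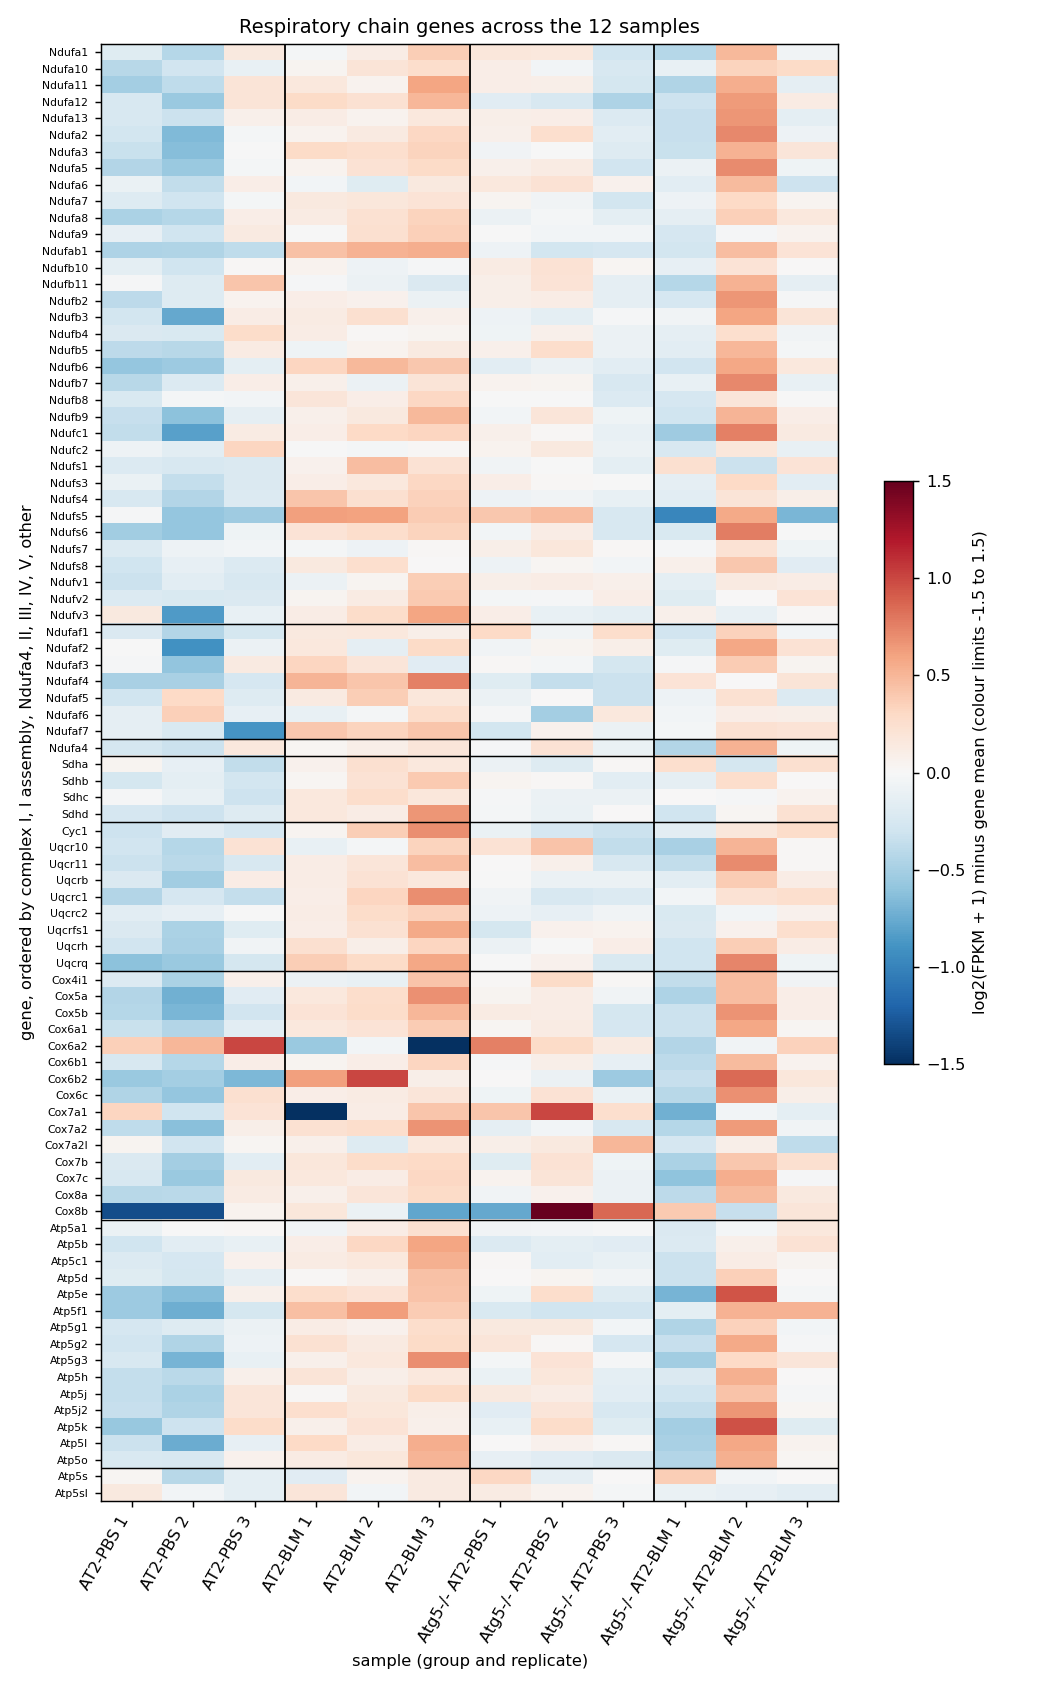
Each row is a tested respiratory chain gene, ordered by complex (1 of the 89 is not drawn), and each column is 1 of the 12 samples. Colour is log2(FPKM + 1) minus the gene's mean over the samples, and the median over the 89 genes was -0.41 in AT2-PBS replicate 2, 0.31 in AT2-BLM replicate 3 and 0.40 in Atg5-/- AT2-BLM replicate 2.

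The first comparison asked how the chain responded to BLM injury in AT2 cells with Atg5. In AT2-BLM against AT2-PBS, 31 of the 89 tested members rose and 1 fell by the study's criterion, an unadjusted p under 0.05 in limma and a fold change of at least 1.4. Over all 10675 genes tested, 20.6% rose and 7.77% fell by the same criterion. With a Benjamini-Hochberg adjusted p under 0.05, 16 of the 89 members changed, a share close to the 17.8% of all genes. That number was 6 after quantile normalization, 7 after median-ratio scaling, 32 with the Y-linked covariate, 6 without AT2-PBS replicate 2, 10 without AT2-PBS replicate 1, 8 without either AT2-BLM replicate 2 or 3, and 12 and 13 without AT2-PBS replicate 3 and AT2-BLM replicate 1. In 51 members every AT2-BLM value was above every AT2-PBS value, as in 28.9% of all genes. The members' median log2 change was 0.41, with 85 of 89 above 0, and the median of all genes was 0.17. With quantile normalization, which moved the median of all genes to -0.02, the members' median was 0.19 and 10 members rose, and with median-ratio scaling it was 0.23 and 10 rose. Measured from the median of all genes, the members' median was 0.24 higher in FPKM as deposited, 0.21 higher after quantile normalization and 0.20 higher after median-ratio scaling. The number of rising members was 15 without AT2-PBS replicate 2, 16 without AT2-BLM replicate 3 and 43 without AT2-PBS replicate 3, and 39 with the Y-linked covariate. A set of 10 members was called in each of the 14 other fits of this comparison, namely Atp5f1, Cox5a, Cox5b, Cox6a2, Cox6b2, Ndufab1, Ndufaf4, Ndufaf7, Ndufb6 and Uqcrq, of which Ndufaf7 and Ndufb6 were named after their values were seen.

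**Figure D2:**
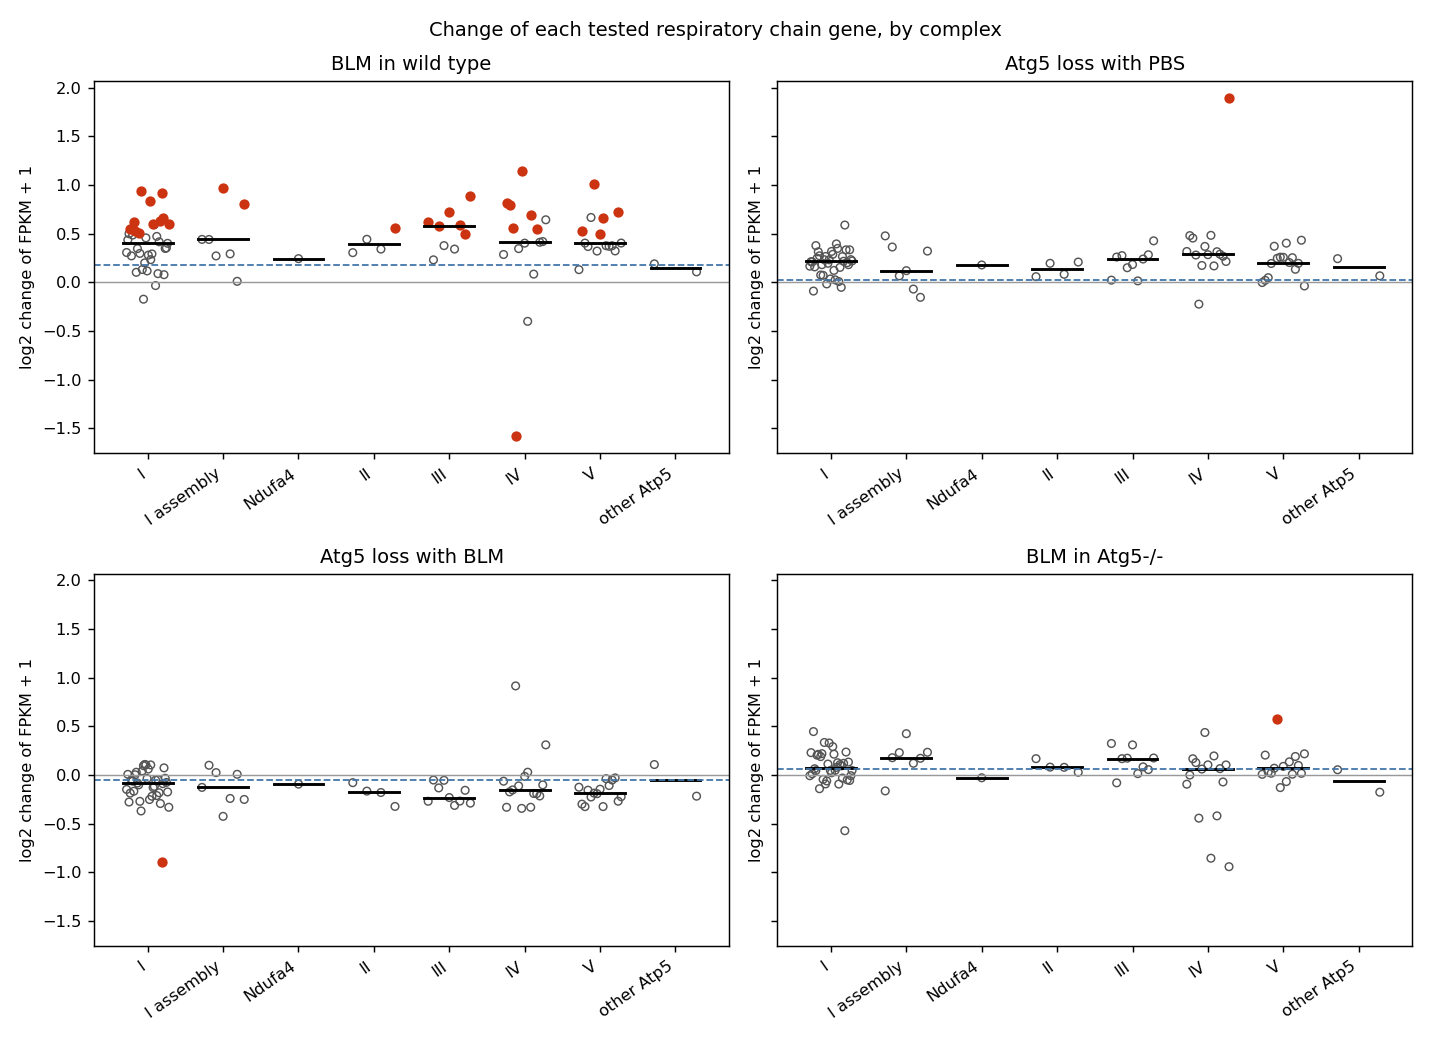
Each point is the log2 change of FPKM + 1 of 1 tested gene, grouped by complex on the horizontal axis, in 4 panels for the 4 comparisons, with filled red points for called genes, a black bar for the median of a complex and a dashed line for the median of all genes tested. The AT2-BLM against AT2-PBS panel holds 32 called genes, and the other panels hold 1 each.

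Complex I, the NADH dehydrogenase, had 11 of 36 genes that rose with BLM and none that fell, where 20.6% of all genes rose and 7.77% fell. Its median log2 change was 0.41. Ndufab1, the mitochondrial acyl carrier protein (chr7:129228917-129245400, minus strand, mm9), was at 52.7, 53.1 and 56.0 FPKM in AT2-PBS and at 99.8, 105 and 107 FPKM in AT2-BLM. The groups stood well apart, and Ndufab1 rose by 0.93 on the log2 scale (SE 0.17, limma adjusted p = 0.0043). Atg5-/- AT2-PBS, at 69.2, 60.4 and 61.1 FPKM, lay between them. Ndufs5, a small accessory subunit (chr4:123389953-123395445, minus strand), was at 206, 139 and 143 FPKM in AT2-PBS, whereas AT2-BLM stood at 320.0, 317 and 272 FPKM. It rose by 0.91 (SE 0.34, limma adjusted p = 0.084), and the call was lost after either scaling, with values of 0.65 and 0.74, and on leaving out AT2-PBS replicate 2, AT2-PBS replicate 3 or AT2-BLM replicate 1, with values of 0.81 to 0.87. Reads of Ndufs5 may be shared with 1 near-identical copy in the genome, and Ndufab1 has 2 such copies.

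Ndufs1, Ndufs3, Ndufs7, Ndufs8, Ndufv1 and Ndufv2, core subunits of complex I, were not called. All of them but Ndufs3 hold the enzyme's flavin or iron-sulphur centres. Ndufs1, the largest subunit of the electron input module, was at 21.2, 20.6 and 20.9 FPKM in AT2-PBS and at 25.7, 34.2 and 28.6 FPKM in AT2-BLM. Its ranges did not overlap, and its log2 change of 0.47 lay just under the fold criterion. Ndufv2 likewise did not overlap, at 40.6, 40.0 and 40.2 against 48.4, 50.9 and 61.8 FPKM, with a log2 change of 0.40. Ndufs7, which carries the iron-sulphur cluster nearest to ubiquinone, overlapped between the groups at 138, 151 and 154 against 155, 150.8 and 161 FPKM, with a log2 change of 0.08 (SE 0.12).

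Among the 7 complex I assembly factors, 2 rose with BLM, where 20.6% of all genes rose, and both had an adjusted p under 0.05. Ndufaf4, which helps to build the arm of complex I that faces the matrix (chr4:24825230-24832148, plus strand), was at 1.42, 1.42 and 1.85 FPKM in AT2-PBS and at 3.81, 3.52 and 4.73 FPKM in AT2-BLM. Every BLM value was above every PBS value, and the log2 change was 0.97 (SE 0.16, limma adjusted p = 0.0035), the smallest adjusted p of any member. Ndufaf1, another assembly factor, was at 8.16, 6.85 and 7.84 against 10.8, 10.9 and 10.3 FPKM, and its log2 change of 0.44 did not reach the fold criterion.

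Complex II, succinate dehydrogenase, has 4 subunits, all encoded in the nucleus. All 4 lay higher in every AT2-BLM sample than in any AT2-PBS sample, as did 28.9% of all genes. The 4 log2 changes were 0.30 to 0.56. Only Sdhd, one of the membrane anchors, passed the criterion, at 114, 109.5 and 118 FPKM in AT2-PBS and 151, 146 and 215 FPKM in AT2-BLM (log2 change 0.56, SE 0.17, limma adjusted p = 0.045). Its value without AT2-BLM replicate 3 was 0.38, quantile normalization gave 0.34 and median-ratio scaling 0.38, and the call was lost in all 3. Sdha, the flavoprotein that oxidizes succinate, was at 82.6, 73.7 and 62.0 against 84.0, 94.7 and 89.8 FPKM, with a log2 change of 0.30 (SE 0.16). Sdhb, the iron-sulphur subunit, and Sdhc, the other anchor, had log2 changes of 0.44 and 0.34 and were not called.

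Complex III had the highest median of the 5 complexes, at 0.57, and 6 of its 9 genes rose, where 20.6% of all genes rose. Whether this median differs from that of the other complexes was not tested. Uqcrc1, a core protein, was at 121, 138 and 129 FPKM in AT2-PBS and 176, 207 and 267 FPKM in AT2-BLM (log2 change 0.72, SE 0.16, limma adjusted p = 0.012), and lost its call after quantile normalization, at 0.48. Cyc1, cytochrome c1, was at 144, 158 and 149 against 183, 231 and 290.2 FPKM (log2 change 0.61, SE 0.18, adjusted p = 0.033 in limma). Uqcrfs1, the Rieske iron-sulphur protein, was at 75.9, 63.2 and 77.8 against 94.6, 104 and 131 FPKM (log2 change 0.59, SE 0.17). In both of these genes AT2-BLM replicate 3 was the highest sample, and without it the log2 changes were 0.45 and the calls were lost, as they were after both scalings. Uqcrq, a small subunit near the ubiquinone site (chr11:53241424-53244333, minus strand), was at 31.0, 32.3 and 39.7 against 62.0, 58.6 and 72.4 FPKM, and rose by 0.89 (SE 0.23, limma adjusted p = 0.021). Uqcrc2, the other core protein, had a log2 change of 0.34 and was not called.

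Complex IV, cytochrome c oxidase, held the largest rise and the only fall. Cox6b2, the testis isoform of subunit 6b (chr7:4703396-4704696, minus strand), was at 15.2, 15.8 and 14.1 FPKM in AT2-PBS and at 35.6, 46.9 and 24.5 FPKM in AT2-BLM. The groups were apart, though the BLM samples differed among themselves, and Cox6b2 rose by 1.15 (SE 0.29, limma adjusted p = 0.021). Its widely expressed paralogue Cox6b1 was at 532, 467 and 671 against 647, 672 and 786 FPKM, which overlapped, with a log2 change of 0.34. Cox6b2 thus amounted to 2.10% to 3.40% of the Cox6b1 FPKM in AT2-PBS and to 3.12% to 6.98% in AT2-BLM.

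Cox6a2, the isoform of subunit 6a known from heart and skeletal muscle (chr7:135348950-135349880, minus strand), was by contrast lower after BLM. AT2-PBS had 185, 204 and 289.8 FPKM, against 97.6, 140.5 and 28.5 FPKM in AT2-BLM. No value overlapped, and Cox6a2 fell by 1.58 on the log2 scale (SE 0.46, limma adjusted p = 0.034). Without AT2-BLM replicate 3, the lowest sample, the log2 change was -0.92 and was still called, and with the Y-linked covariate it was -1.70. The widely expressed Cox6a1 went the other way, from 786, 729 and 887 FPKM to 1107, 1141 and 1292 FPKM (log2 change 0.56, SE 0.22, limma adjusted p = 0.092), a call lost after both scalings at 0.40 and 0.38 and on leaving out AT2-PBS replicate 1, AT2-PBS replicate 2 or AT2-BLM replicate 3, at 0.49 to 0.55. Cox6a2 was 23.6% to 32.7% of the Cox6a1 FPKM in AT2-PBS and 2.21% to 12.3% in AT2-BLM.

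Muscle genes and sequences that overlap or resemble Cox6a2 were also looked at. The 10 striated muscle genes Acta1, Ckm, Myh6, Myl1, Mylpf, Tnnt3, Tnnc2, Mb, Actc1 and Tnni3 summed to 1.72 to 7.73 FPKM in AT2-PBS, where Cox6a2 was highest, and to 10.7 to 19.4 FPKM in AT2-BLM. Cox6a2 overlaps Itgad on the other strand. Itgad was at no more than 0.0925 FPKM in AT2-PBS and 0.0596 FPKM in AT2-BLM, and at 0.395 to 1.13 FPKM in Atg5-/- AT2-PBS. The coding sequences of Cox6a1 and Cox6a2 are 64.6% identical, with a longest shared run of 12 bases, and no near-identical copy of Cox6a2 was found in mm9. The part of muscle cells, of Itgad and of read mapping in the Cox6a2 values was not tested.

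**Figure D3:**
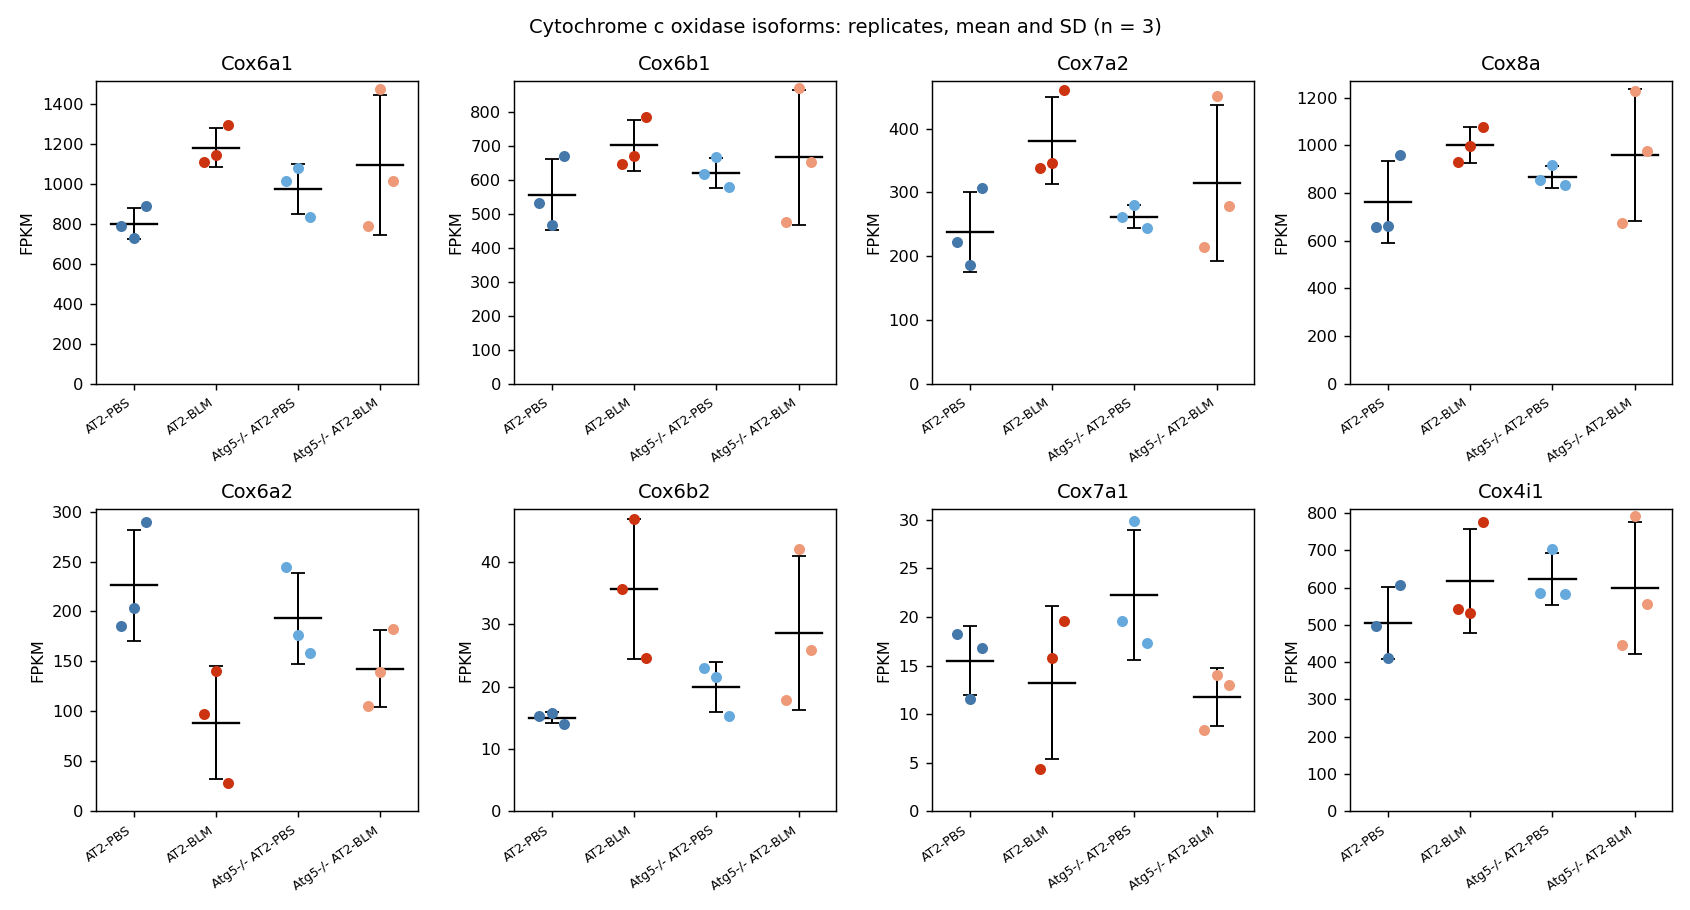
FPKM of 8 complex IV genes in each of the 12 samples, with the group mean as a bar and the SD as whiskers (n = 3). Cox6a2 is lower in AT2-BLM than in AT2-PBS, whereas Cox6b2 and Cox6a1 are higher, and Atg5-/- AT2-BLM spreads from 791 to 1476 FPKM in Cox6a1.

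Of the other isoforms of complex IV, Cox7a2 rose from 221, 185 and 307 FPKM to 338, 345 and 460.3 FPKM (log2 change 0.69, SE 0.26, adjusted p = 0.084 in limma), and its muscle paralogue Cox7a1, at 18.2, 11.5 and 16.8 against 4.39, 15.7 and 19.6 FPKM, overlapped. Cox7b rose by 0.54. Both calls were lost after either scaling and without AT2-PBS replicate 2 or AT2-BLM replicate 3, at 0.32 to 0.55. Cox7a2 was also lost without AT2-PBS replicate 1, at 0.66, and Cox7b without AT2-BLM replicate 2, at 0.53. Cox7a2l, a further paralogue of Cox7a2, had a log2 change of 0.08. Cox8a, the common form of subunit 8, was at 658, 663 and 959 against 930.1, 996 and 1078 FPKM and was not called. Cox5a and Cox5b, structural subunits around the catalytic core, both rose. Cox5a was at 193, 159 and 233 against 291, 314 and 423 FPKM (log2 change 0.81, SE 0.23, limma adjusted p = 0.033), and Cox5b at 180.4, 151 and 199 against 281, 296 and 343 FPKM (log2 change 0.79, SE 0.23). Cox5b and Cox7b have 2 near-identical copies each in the genome, which may share their reads. Cox4i1, the subunit that binds regulatory nucleotides, overlapped at 497, 413 and 606 against 543, 533 and 778 FPKM. Cox4i2, its lung and hypoxia-associated paralogue, stayed between 0.38 and 1.16 FPKM in all 12 samples, at no more than 0.232% of Cox4i1. Cox7b2 was listed at 0 in every sample and Cox8c above 0 in 1 sample.

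Complex V had 5 of 15 genes that rose, where 20.6% of all genes rose. Atp5f1, subunit b of the peripheral stalk (chr3:105745616-105763017, minus strand), was at 145, 127 and 176 FPKM in AT2-PBS and at 289, 329 and 276 FPKM in AT2-BLM. These did not overlap, and Atp5f1 rose by 1.00 (SE 0.19, limma adjusted p = 0.0058). It overlaps Wdr77 on the other strand and has 1 near-identical copy, so a share of its reads could belong elsewhere. Atp5b, the catalytic beta subunit (chr10:127520329-127527447, plus strand), was at 392, 433 and 448 against 518, 599 and 728 FPKM (log2 change 0.52, SE 0.16, adjusted p = 0.044 in limma), and its call was lost after both scalings and without AT2-PBS replicate 1 or AT2-BLM replicate 3, at 0.32 to 0.47. Its partner Atp5a1, the alpha subunit, which occurs in the enzyme in the same number of copies, was at 260.0, 279 and 282 against 269, 302 and 330.3 FPKM, which overlapped, with a log2 change of 0.13 (SE 0.14). The difference between Atp5a1 and Atp5b was not tested. Atp5b overlaps Baz2a on the same strand, so its reads too could in part belong elsewhere. Subunit c, which forms the rotating ring, is encoded by 3 genes with the same mature product. Atp5g3 rose by 0.66 (SE 0.24) and Atp5g2 by 0.49 (SE 0.21), neither with an adjusted p under 0.05, and Atp5g1 had a log2 change of 0.32. Atp5g2 has 3 near-identical copies and Atp5g1 has 1. After both scalings, and without AT2-PBS replicate 2 or AT2-BLM replicate 3, neither Atp5g2 nor Atp5g3 was called, at 0.28 to 0.48, and Atp5g2 was also lost when AT2-PBS replicate 1 or AT2-BLM replicate 1 or 2 was left out, at 0.48 to 0.53.

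Promoters of genes for the respiratory chain are known to hold sites for NRF1, ETS-family factors and YY1. RefSeq promoters (GRCm38.p6, from 250 bases before to 50 bases after the start) were matched to 76 of the 93 members, and the letters GCATGCGC (NRF1), CCGGAAGT (ETS) and AAGATGGC (YY1) were searched on both strands. GCATGCGC was present in 12 of the 76 (15.8%), against 2.80% of all 27025 promoters and 5.59% of the 8630 promoters of tested genes. AAGATGGC was present in 10 (13.2%), against 2.88% and 4.83%, and CCGGAAGT in 5 (6.58%), against 4.0% and 8.85%. Of the 12 members with GCATGCGC 7 rose with BLM, as did 21 of the 63 tested members with a promoter but without these letters. For AAGATGGC the counts were 4 of 10 and 24 of 65, and for CCGGAAGT 2 of 5 and 26 of 70, all given as a description. The 5 members that rose with BLM and hold one of these words in the 150 bases before the start are printed 5′ to 3′ on the gene's strand, with the matched letters in capitals, so that the position of each word can be seen. In Atp5g2 (chr15:102671048-102671197), Ndufa8 (chr2:36049339-36049488) and Ndufaf4 (chr4:24897933-24898082) the word is that of NRF1, and in Uqcr11 (chr10:80406822-80406971) and Uqcrh (chr4:116075071-116075220) that of ETS factors, in Uqcrh on the opposite strand. Atp5h holds the ETS word and Atp5k, Ndufa11, Ndufa6 and Sdhb the NRF1 word in the same 150 bases. These did not rise by the criterion and are not printed. Of the members printed, Atp5g2, Ndufa8, Uqcr11 and Uqcrh lost their calls after both scalings, and Ndufaf4 kept its call. Ndufa8, Uqcrh, Atp5k, Ndufa11 and Ndufa6 were named for their promoters after their values were seen.
Atp5g2: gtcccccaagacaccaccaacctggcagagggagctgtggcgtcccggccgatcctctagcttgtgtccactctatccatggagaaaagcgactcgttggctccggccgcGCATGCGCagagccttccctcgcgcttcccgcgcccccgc
Ndufa8: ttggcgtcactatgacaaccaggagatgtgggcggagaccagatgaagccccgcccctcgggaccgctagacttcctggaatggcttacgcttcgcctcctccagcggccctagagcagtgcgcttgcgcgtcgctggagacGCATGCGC
Ndufaf4: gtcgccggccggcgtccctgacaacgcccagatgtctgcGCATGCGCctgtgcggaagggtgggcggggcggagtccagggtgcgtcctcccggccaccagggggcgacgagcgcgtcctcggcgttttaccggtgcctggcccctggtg
Uqcr11: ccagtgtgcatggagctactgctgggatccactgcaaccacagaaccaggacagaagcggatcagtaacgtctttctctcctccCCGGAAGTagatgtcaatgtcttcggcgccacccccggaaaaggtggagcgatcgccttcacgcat
Uqcrh: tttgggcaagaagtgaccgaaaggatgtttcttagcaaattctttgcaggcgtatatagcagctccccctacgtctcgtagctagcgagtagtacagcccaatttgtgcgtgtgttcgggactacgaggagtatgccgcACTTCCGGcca

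Other genes of the pathway were counted from fixed lists. Of 37 tested assembly factors outside the naming rule, 7 (18.9%) rose with BLM and 1 fell, where 20.6% of all genes rose and 7.77% fell. The gene that fell was Pet117, which acts in complex IV assembly and had a log2 change of -1.43. Pet117 was weakly expressed, at no more than 1.82 FPKM in AT2-PBS and no more than 3.28e-06 FPKM in AT2-BLM. As with the listed 0 of Sftpc, the AT2-BLM values cannot be read as absence, so the size of this fall is uncertain. Of 21 tested mobile carriers and related genes, 6 (28.6%) rose and 0 fell. Cycs, cytochrome c, which carries electrons from complex III to complex IV, rose by 0.81 (SE 0.18), Slc25a4, the ADP/ATP carrier, by 0.77 (SE 0.19), and Coq7, an enzyme of ubiquinone synthesis, by 1.28 (SE 0.21). Of 13 tested transcription and biogenesis factors, 4 (30.8%) rose, among them Pprc1, a coactivator related to PGC-1alpha, by 0.80 and Esrra, the nuclear receptor ERRalpha, by 0.71, and Polg2, the accessory subunit of the mitochondrial DNA polymerase, fell by 0.92.

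Markers of other cells also moved in this comparison. Of 8 tested leukocyte markers 6 rose and 1 fell, of 8 liver genes 6 rose, and of 6 AT1 markers 3 rose. The summed leukocyte list, mostly Lyz2, which AT2 cells also express, was nevertheless lower, at 15173 to 27516 FPKM against 38611 to 48744 FPKM, and the liver list overlapped at 306 to 968 against 249.8 to 815 FPKM. Cd68, a macrophage gene, was at a median of 9.12 FPKM in AT2-PBS and 30.8 FPKM in AT2-BLM, with no overlap. Ptprc, which encodes the CD45 used in the sort, was low in both groups but also did not overlap. It was at 0.0119 to 0.621 FPKM in AT2-PBS and 0.706 to 0.946 FPKM in AT2-BLM. Of the 10 AT2 markers, 9 were tested, 1 of them rose and 3 fell. All 3 tested airway markers fell, and their list summed to 822 to 4942 FPKM against 4826 to 11568 FPKM. Of the 4 fibroblast markers 0 were called and of the 8 muscle markers 1 rose. The part of these genes in the members' change was not tested.

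The second comparison asked what Atg5 loss did without injury. In Atg5-/- AT2-PBS against AT2-PBS, 1 of the 89 members rose and 0 fell, where 14.1% of all genes rose and 5.16% fell. None of the members passed an adjusted p under 0.05, against 11.2% of all genes, and 3 members had an unadjusted p under 0.05 in limma, against 22.4% of all genes. The members' median log2 change was 0.22, with 81 of 89 above 0, and the median of all genes was 0.02. After quantile normalization, the members' median was 0.08 and that of all genes -0.17. With the Y-linked covariate, 8 members rose and the median was 0.35, but no Atg5-/- AT2-PBS library had Y-linked expression. AT2-PBS replicate 1 and some libraries of the BLM groups lacked it too. That group and the absence of Y-linked expression are therefore partly confounded, and can be told apart only through libraries of the other groups. The number was 4 without AT2-PBS replicate 3, 2 without Atg5-/- AT2-PBS replicate 3 and 0 without AT2-PBS replicate 2. The AT2-PBS libraries are those of the first comparison.

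The called gene was Cox8b, the heart and muscle isoform of subunit 8 (chr7:148084842-148086345, minus strand). AT2-PBS had 0, 0 and 1.61 FPKM, against 0.476, 18.8 and 3.57 FPKM in Atg5-/- AT2-PBS. The ranges overlapped, and the log2 change of 1.89 (SE 0.72, limma adjusted p = 0.13) rested on replicate 2, without which it was 0.91 and not called. The call was also lost without AT2-PBS replicate 1 or 2, at 1.66 each, after quantile normalization and with the Y-linked covariate. The same library was the highest of the series in the muscle genes Mb at 28.8 FPKM, Actc1 at 24.4 FPKM and Tnni3 at 17.7 FPKM, and in Cox7a1 at 29.9 FPKM. The 10 muscle genes summed to 24.4 to 113 FPKM in Atg5-/- AT2-PBS, and all 8 that were tested rose. Cox6a2 did not follow them, at 244, 176 and 159 FPKM, which overlapped with its range in AT2-PBS.

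Several small but even shifts were seen in this comparison. Ndufaf1 was at 12.1, 9.26 and 11.7 FPKM in Atg5-/- AT2-PBS, above the 6.85 to 8.16 FPKM of AT2-PBS, with a log2 change of 0.48 (SE 0.18) that lay just under the fold criterion. Ndufv1, the flavin-binding subunit of complex I, was at 91.4, 92.9 and 90.9 against 68.5, 77.0 and 72.7 FPKM, with a log2 change of 0.33. Cox5a at 270.0, 284 and 253 FPKM and Cox5b at 264, 262 and 202 FPKM also lay above AT2-PBS in every sample, with log2 changes of 0.48 and 0.45. In all, 22 members had ranges that did not overlap, all of them higher in Atg5-/- AT2-PBS, as were 18.1% of all genes. By contrast Atp5a1 had a log2 change of 0.00, and Atp5b, Cyc1 and Uqcrc2 of 0.02, 0.02 and 0.01.

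Most marker lists of other cells had members that rose in Atg5-/- AT2-PBS. Of 8 tested leukocyte markers 7 rose, with Ptprc at 7.54 to 8.46 FPKM against 0.621 or less and Cd68 at 101 to 119 FPKM, and all 4 tested fibroblast markers and 7 of 8 liver genes rose. The fibroblast list summed to 80.4 to 91.4 FPKM against 2.93 to 10.4 FPKM, and the liver list to 2085 to 3313 FPKM against 249.8 to 815 FPKM. The leukocyte list, mostly Lyz2, was lower in sum, at 30756 to 36193 against 38611 to 48744 FPKM, and so was the AT1 list, at 1435 to 1726 against 1862 to 2266 FPKM, of whose 6 markers 2 rose and 1 fell. The club cell gene Scgb1a1 was at 22572 to 83587 FPKM against 4776 to 11512 FPKM in AT2-PBS. Of the 9 tested AT2 markers, 1 rose and 4 fell. The part of these genes in the members' shift was not tested.

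The third comparison asked what Atg5 loss did during BLM injury. In Atg5-/- AT2-BLM against AT2-BLM, 0 of 89 members rose and 1 fell, where 2.04% of all genes rose and 3.12% fell. No member had an adjusted p under 0.05, against 0.00937% of all genes, and 5 had an unadjusted p under 0.05 in limma, against 7.88% of all genes. The members' median was -0.15, with 72 of 89 below 0, and that of all genes was -0.05. This median turned to 0.04 without Atg5-/- AT2-BLM replicate 1, where no member fell, and became -0.30 without replicate 2, where 10 members fell. No member fell on leaving out AT2-BLM replicate 1, nor on leaving out Atg5-/- AT2-BLM replicate 3, and 1 rose without AT2-BLM replicate 2.

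The fall was that of Ndufs5. AT2-BLM had 320.0, 317 and 272 FPKM, against 105, 311 and 129 FPKM in Atg5-/- AT2-BLM. Atg5-/- replicate 2 lay within the AT2-BLM range, and the other 2 lay below all AT2-PBS samples. The log2 change was -0.90 (SE 0.34, limma adjusted p = 0.62), and the call was lost without Atg5-/- AT2-BLM replicate 1, at -0.59, without replicate 3, at -0.74, and without AT2-BLM replicate 1 or 2, at -0.86. Members without overlap between the groups numbered 8 of 89, all lower in Atg5-/- AT2-BLM, a share close to the 8.49% of all genes. Ndufaf4 was among them, at 2.92, 2.39 and 2.87 against 3.81, 3.52 and 4.73 FPKM (log2 change -0.43, SE 0.16), as were Uqcrc2, at 46.9, 53.7 and 57.6 against 59.6, 67.1 and 70.4 FPKM, with a log2 change of -0.31, and Sdhc, with -0.18. None of these 3 reached the fold criterion. Cox6a2 was at 106, 139 and 183 FPKM, which overlapped with AT2-BLM, and its log2 change was 0.91 (SE 0.46) with an adjusted p of 0.65 in limma. No leukocyte, liver, muscle or AT2 marker was called in this comparison, whereas 1 of 4 fibroblast and 1 of 6 AT1 markers fell and 1 of 3 airway markers rose.

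The fourth comparison asked how Atg5-/- AT2 cells responded to BLM. In Atg5-/- AT2-BLM against Atg5-/- AT2-PBS, 1 of 89 members rose and 0 fell, where 7.66% of all genes rose and 10.7% fell. None had an adjusted p under 0.05, against 8.67% of all genes, and 3 had an unadjusted p under 0.05 in limma, against 21.9%. The members' median was 0.08 and that of all genes 0.06. It was -0.10 without Atg5-/- AT2-BLM replicate 2, 0.23 without replicate 1, where 5 members rose, and -0.07 with the Y-linked covariate, where 0 rose and 1 fell. Without Atg5-/- AT2-BLM replicate 3, 0 rose, and without Atg5-/- AT2-PBS replicate 1 or Atg5-/- AT2-BLM replicate 2, 2 fell. The gene that rose was Atp5f1, with 181, 172 and 173 FPKM under PBS against 191, 304 and 305 FPKM under BLM (log2 change 0.57, SE 0.19, limma adjusted p = 0.089). Without Atg5-/- AT2-BLM replicate 2 or 3 it was 0.46 and not called, and with the Y-linked covariate 0.48 and not called. Cox6b2 had a log2 change of 0.44 and Ndufab1 of 0.33, both with overlapping ranges. Cox7a2l, at 72.02, 74.8 and 96.0 against 56.9, 71.96 and 52.0 FPKM, nearly touched between the groups. Cox7a2l and Cox7a1, the latter at 19.6, 29.9 and 17.4 against 8.38 to 14.02 FPKM, lay lower after BLM without being called. In this comparison 7 of 8 tested leukocyte markers, all 4 fibroblast markers, 7 of 8 muscle markers, 5 of 8 liver genes and all 3 airway markers fell, and 5 of 6 AT1 and 2 of 9 AT2 markers rose.

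The difference between the 2 BLM responses was tested directly as an interaction term. The term was below 0 for 85 of 89 members, with a median of -0.35 against -0.09 over all genes. A term below 0 means a log2 change with BLM that was less positive or more negative in Atg5-/- cells, and in 22 of the 85 the log2 change in Atg5-/- cells was itself below 0. By the criterion 7 members were lower and 0 higher in this term, where 15.2% of all genes were lower and 5.02% higher, so that the members' 7 of 89 lay below the share of all genes. No member had an adjusted p under 0.05, against 7.89% of all genes, and 7 had an unadjusted p under 0.05 in limma, against 20.6%. After quantile normalization the median was -0.09, with that of all genes at 0.15, and 2 members were lower, and after median-ratio scaling 1 member was lower. The number was 31 without Atg5-/- AT2-BLM replicate 2, 2 without replicate 1, 3 without AT2-PBS replicate 2 and 27 with the Y-linked covariate, of which 3 had an adjusted p under 0.05, and 1 member was higher without AT2-BLM replicate 2. The 4 groups enter this term together, and 0 of the 3 Atg5-/- AT2-PBS libraries had Y-linked expression.

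Ndufs5 had the largest called difference, -1.49 on the log2 scale (SE 0.48, limma adjusted p = 0.088). Its log2 change with BLM was 0.91 in cells with Atg5 and -0.57 in Atg5-/- cells, the latter not called. Its values stood at 139 to 206 FPKM in AT2-PBS and 272 to 320.0 FPKM in AT2-BLM, but at 176 to 287 FPKM in Atg5-/- AT2-PBS and 105 to 311 FPKM in Atg5-/- AT2-BLM. It was the only member called in each of the 19 other fits of this term, with values from -1.95 to -1.18. Cox5a had a difference of -0.81 (SE 0.33), with log2 changes of 0.81 with BLM in cells with Atg5 and 0.00 in Atg5-/- cells. Uqcrq had -0.72 (SE 0.32), from 0.89 and 0.17. Ndufab1 had -0.60 (SE 0.24), from 0.93 and 0.33. Ndufaf1 had -0.60 (SE 0.25), from 0.44 and -0.16, and Ndufaf4 had -0.54 (SE 0.23), from 0.97 and 0.42. The adjusted p of these 5 lay between 0.16 and 0.23 in limma. Calls of Cox5a, Uqcrq, Ndufab1 and Ndufaf1 were lost without Atg5-/- AT2-BLM replicate 1, at -0.56, -0.50, -0.40 and -0.46. That of Ndufaf4 was lost without Atg5-/- AT2-BLM replicate 2, at -0.48. Without Atg5-/- AT2-PBS replicate 1 all 5 calls were lost, at -0.81 for Cox5a and -0.49 to -0.69 for the others, and each gene but Ndufab1 was also lost in 3 to 7 further fits that left out 1 library.

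**Figure D4:**
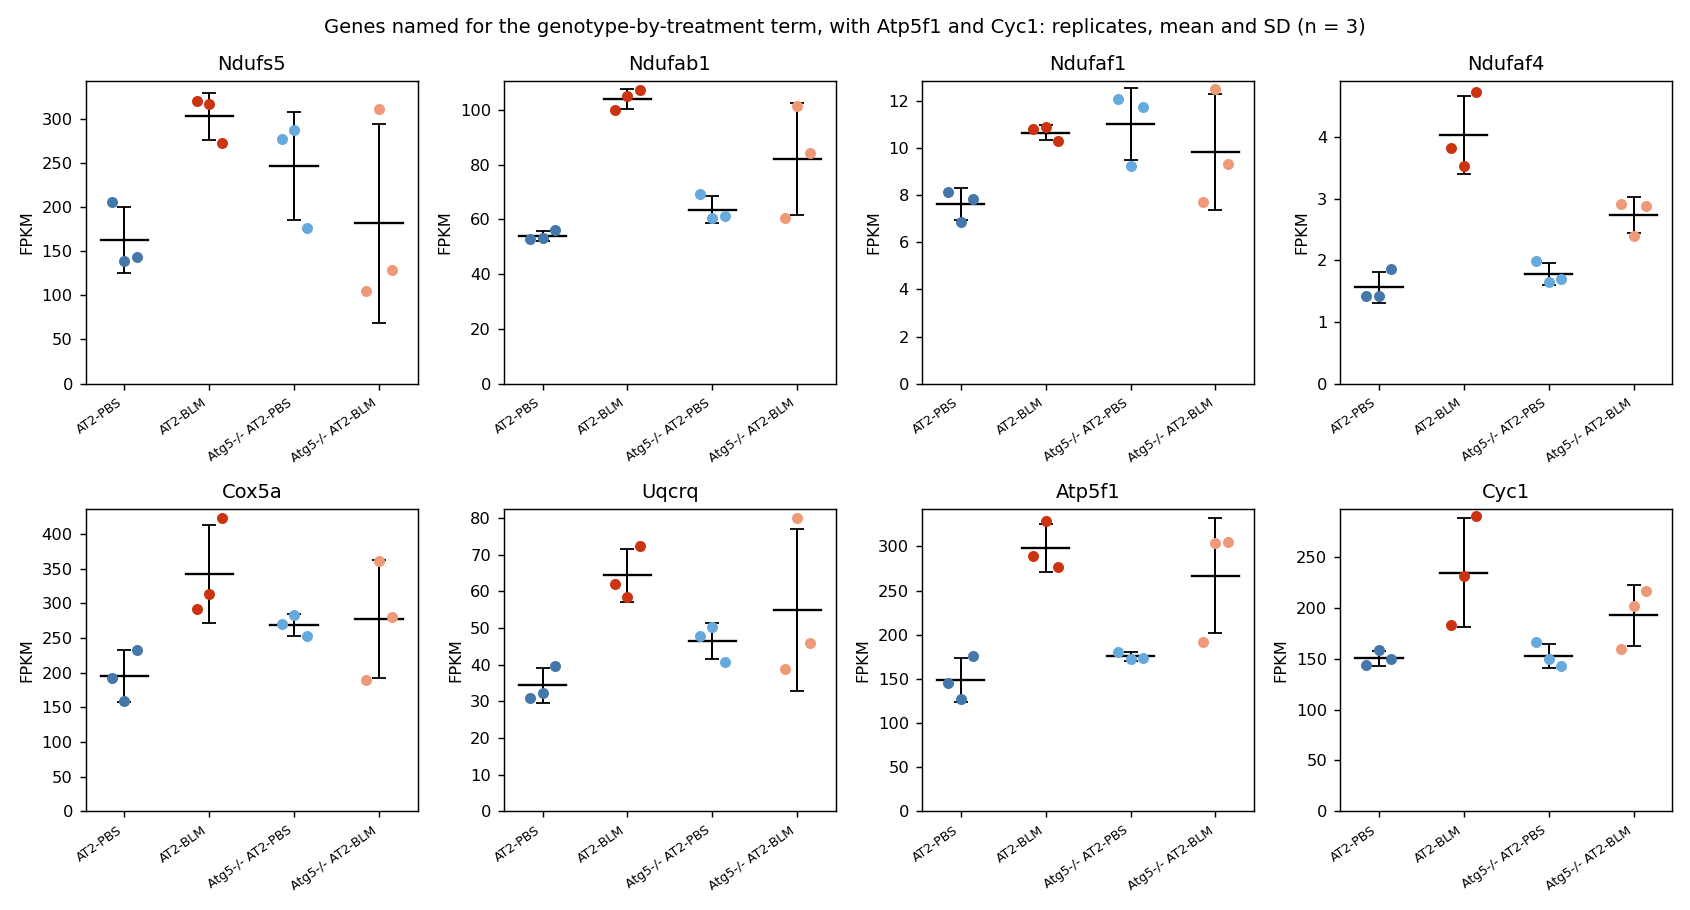
FPKM of 8 members in each of the 12 samples, with the group mean as a bar and the SD as whiskers (n = 3). In the 6 genes named for the interaction term the mean differs more between AT2-PBS and AT2-BLM than between the Atg5-/- groups in the same direction, and in Ndufs5 the Atg5-/- AT2-BLM samples run from 105 to 311 FPKM.

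The spread inside Atg5-/- AT2-BLM went with transcript length. The members' longest annotated transcripts had a median of 977 bases, against 2881.5 bases over tested genes, and 44 of the 86 members with a length were under 1000 bases. Relative to the group mean, the 44 short members had a median deviation of 0.43 in Atg5-/- AT2-BLM replicate 2 and -0.42 in replicate 1, and all 672 short genes tested had 0.35 and -0.31. Longer genes as a whole had deviations of -0.07 and 0.02 in these libraries, whereas longer members had 0.18 and -0.24. In AT2-PBS, replicate 3 was high and replicate 2 low, with median deviations of 0.29 and -0.22 for short members and 0.13 and -0.19 for all short genes.

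Over all tested genes, the change between groups also went with length in the comparisons below, whereas the members' medians differed less. In AT2-BLM against AT2-PBS, short and longer members both had a median log2 change of 0.41, while all short genes had 0.31 and all longer genes 0.17. In Atg5-/- AT2-PBS against AT2-PBS, short members had 0.26 and longer members 0.20, and all genes under 1000 bases had 0.33 against 0.00 for longer genes. Across the 86 members in this comparison, change and length had a Spearman rho of -0.34 and a Pearson r of -0.33, a description over genes that share the same 6 libraries. In the interaction term all short genes had a median of -0.45 and all longer genes -0.07, and short and longer members had -0.31 and -0.36. The part of transcript length in the members' changes was not tested.

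**Figure D5:**
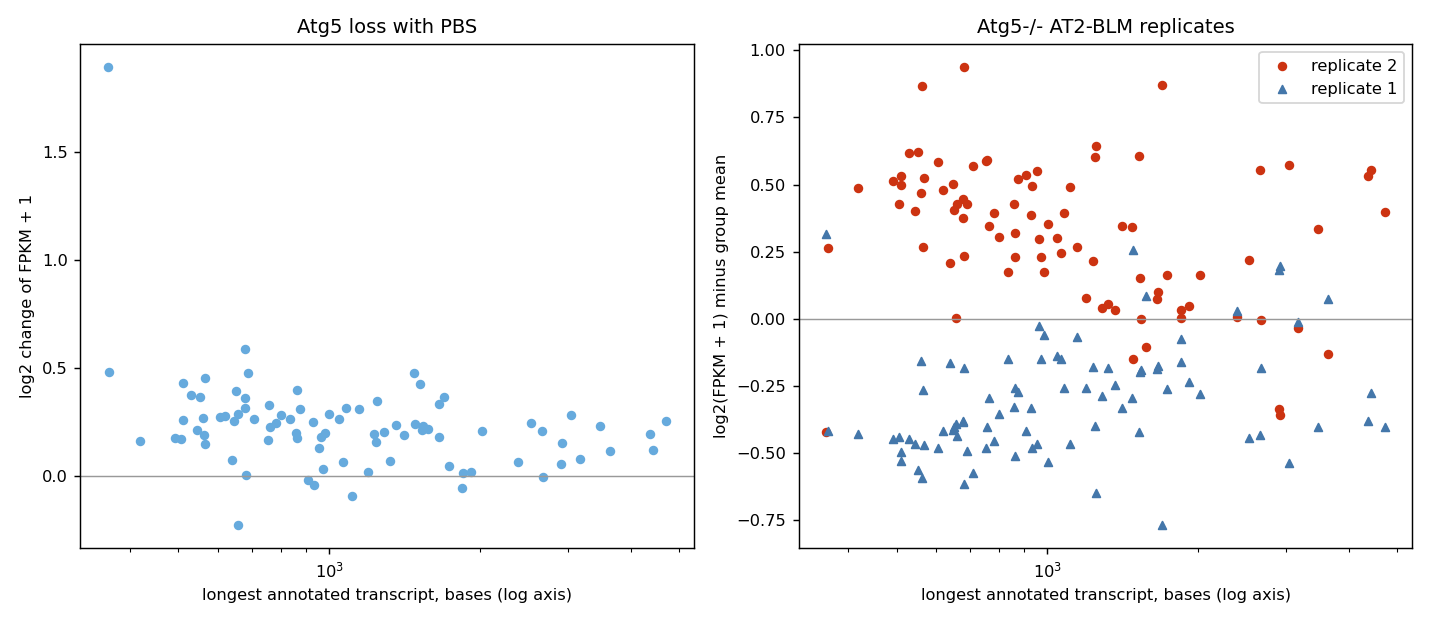
The horizontal axes give the longest annotated transcript of 86 members in bases on a log scale. The left panel shows the log2 change of Atg5-/- AT2-PBS against AT2-PBS, and the right panel the deviation of Atg5-/- AT2-BLM replicates 1 and 2 from their group mean, where short members had medians of -0.42 and 0.43.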

How the data were processed

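RNA from sorted AT2 cells of 12 samples (4 groups of 3, grouped by GEO's genotype and treatment labels) was sequenced after TruSeq Stranded mRNA preparation. The authors aligned the reads to mm9 and deposited 1 table of Cufflinks FPKM per gene. The study's text names STAR as aligner, and the submitters' processing notes name HISAT2 2.2.1.0, Trimmomatic 0.36, Cufflinks 2.2.1 and HTSeq 0.9.1, so the aligner is uncertain, as is whether the DESeq normalization the text mentions is contained in the FPKM. Multi-mapped reads and isoform models can shift FPKM of short genes and of genes with near-identical copies. At least 1 such copy was found for 19 of the 90 members searched, among them Uqcr11 with 2. Depth is unknown, because no counts or library totals were used here.

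The 93 members, the pathway and marker lists and the tests were chosen with earlier results of these data known. Genes with at least 1 FPKM in at least 3 samples (10675 of 21878) were tested on log2(FPKM + 1) with limma 3.58.1 in R 4.3.3 (linear model over 4 group means, empirical Bayes with a mean-variance trend), and Benjamini-Hochberg adjustment ran over all tested genes. A gene was called at an unadjusted two-sided p under 0.05 and a fold of at least 1.4 on that scale. A permutation test of 3 samples against 3 cannot go below p = 0.1. Genes named are the core subunits, the isoform pairs, the 5 largest called rises and falls of each comparison, and the highest and lowest gene of each complex. Of the core subunits, 1 is not reported here. In simulated data on 10675 genes for AT2-BLM against AT2-PBS, 92% of 2-fold and 98% of 4-fold changes were called. The changed genes were a sample drawn only from well-expressed genes, with spread simulated separately for each gene. These shares therefore do not hold for weakly expressed members or for changes under 2-fold. For the BLM comparison in Atg5-/- cells 3.04% of unchanged genes were called. Positions and lengths came from the GENCODE annotation of mm9, near-identical copies (at least 95% identity over at least 90% of the coding sequence) from blastn 2.17.0, and summaries and figures from Python 3.11.15 with pandas 2.3.3 and matplotlib 3.10.9. Alternatives were another pseudocount, no filter, quantile and median-ratio scaling, a replicate block, no trend, only the compared groups, the adjusted p, each replicate left out, and a Y-linked covariate (the mean of Ddx3y, Eif2s3y, Kdm5d and Uty) chosen after seeing the data.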

Additional observations from a re-analysis of the deposited data

Results flagged for a closer look

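For 7 of the 89 tested members (7.87%) the response to BLM differed between cells with and without Atg5 by the interaction term (unadjusted p under 0.05, fold 1.4 or more), and none passed the Benjamini-Hochberg adjustment in limma. All 7 were lower in this term, where 15.2% of all genes were lower, so the members' share lay below that of all genes. The differences, Atg5-/- response minus the response with Atg5, were -1.49 for Ndufs5, -0.81 for Cox5a, -0.72 for Uqcrq, -0.60 for Ndufab1, -0.60 for Ndufaf1, -0.54 for Ndufaf4 and -0.51 for Ndufs4 on the log2 scale, the last a complex I subunit named after its values were seen. In Ndufs5 and Ndufaf1 the log2 change with BLM was above 0 in cells with Atg5, at 0.91 and 0.44, and below 0 in Atg5-/- cells, at -0.57 and -0.16, neither of the latter called. In Ndufs5, Atg5-/- AT2-BLM replicate 2 stood with AT2-BLM while replicates 1 and 3 lay below AT2-PBS. Uqcrq, Ndufab1, Ndufaf1, Ndufaf4 and Ndufs4 lost their calls after both quantile normalization and median-ratio scaling, and Cox5a lost its call after median-ratio scaling. The part of transcript length and of Y-linked expression in the differences of the 7 members was not tested beyond the covariate fit.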

How the results depend on the processing

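No named gene that was called changed sign in any alternative, but the members' median did for Atg5 loss with BLM and for BLM in Atg5-/- cells, with the values that follow. For AT2-BLM against AT2-PBS, the number of members that rose was 10 after quantile normalization, 10 after median-ratio scaling, 15 with the adjusted p and 15 to 43 when 1 library was left out, and the median change was 0.19, 0.23 and 0.35 to 0.54 in the first, second and last of these. For Atg5 loss with PBS, it was 2 with pseudocount 0.1, 2 with no filter, 0 after quantile normalization, 0 with the adjusted p, 8 with the Y-linked covariate and 0 to 4 with 1 library left out, and the median was 0.082 after quantile normalization and 0.35 with the covariate. For Atg5 loss with BLM, 1 rose with the covariate and 0 to 1 with 1 library left out, and 2 fell with pseudocount 0.1, 0 with the adjusted p and 0 to 10 with 1 library left out, where the median ran from -0.30 to 0.035. For BLM in Atg5-/- cells, 2 rose with pseudocount 0.1, 2 after quantile normalization, 0 with the adjusted p, 0 with the covariate and 0 to 5 with 1 library left out, while 1 fell with no filter, 1 after quantile normalization, 2 after median-ratio scaling, 1 with only the compared groups, 1 with the covariate and 0 to 2 with 1 library left out, and the median was -0.068 with the covariate and -0.10 to 0.23 with 1 library left out. For the interaction, 2 were lower after quantile normalization, 1 after median-ratio scaling, 0 with the adjusted p, 27 with the covariate and 2 to 31 with 1 library left out, 0 to 1 were higher, and the median was -0.091 after quantile normalization, -0.57 with the covariate and -0.51 to -0.20 with 1 library left out. The causes were not tested. Of the 21 named genes called with BLM in cells with Atg5, 238 of 294 refits kept the call and 56 lost it.

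With a replicate block, 29 members rose and 1 fell in AT2-BLM against AT2-PBS, 8 were lower in the interaction, and the other counts equalled those without it. Atp5g2, and in the interaction Ndufaf1 and Uqcrq, lost their calls. Samples with the same number correlated between -0.30 and 0.23 in their deviations from the group means, so the numbers were not taken to pair the samples.

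Depth is not known, so no interval for counting error can be given, and 3 samples a group limit the precision. Quantile normalization and median-ratio scaling set the level of all genes differently, and a shift shared by all genes cannot be seen after either.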
